A study of Mus musculus with 20 samples.

Results

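Maternal pronuclei of wild-type zygotes whose DNA replication had been blocked with aphidicolin were compared with oocytes, the cells their genome came from. The comparison used 4 of the 20 bisulfite libraries of the series, chosen by their labels alone: WT-Mat-Aphi replicates 1 and 2, against Oocyte replicates 1 and 2. The WT-Mat-Aphi zygotes came from superovulated WT (f/f) females of 7 to 10 weeks, inseminated in vitro with sperm of adult C57BL/6J males. They were moved at 5 hours post-fertilization (hpf) into medium with 3 µg/ml aphidicolin, and maternal pronuclei were isolated by hand at 12 hpf and frozen at 13 hpf. The Oocyte libraries carry the labels WT, maternal and mock. Mock WT maternal pronuclei (WT-Mat) were isolated at the same time without aphidicolin and serve below as a second view. Females without oocyte Tet3 (CKO, Zp3-Cre, f/-, the Cre driven by an oocyte promoter) gave the CKO-Mat-Aphi libraries, which were treated with aphidicolin likewise. A pronuclear library typically held about 20 pronuclei amplified over 21 PCR cycles, while the number of oocytes per library is not given in the labels. Nothing in the labels says that replicates came from separate animals or days, so the spread between them may be technical.

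The oocyte genome is methylated mainly across transcribed gene bodies, including many CpG islands inside genes, and at the germline control regions of maternally imprinted genes. After fertilization this methylation can fall passively, when newly made strands are not methylated after replication, or actively, by oxidation of 5-methylcytosine by Tet dioxygenases such as Tet3. Aphidicolin inhibits replicative DNA polymerases. Bisulfite sequencing reads 5-methylcytosine and 5-hydroxymethylcytosine alike, so the first step of oxidation does not lower the values given here. It reads the further products, 5-formylcytosine and 5-carboxylcytosine, as unmethylated. Reduced representation bisulfite sequencing reads fragments cut by MspI, which are rich in CpGs.

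The WT-Mat-Aphi libraries held 48737174 and 29753335 CpG calls, and the Oocyte libraries 40640760 and 45323299. On the autosomes 486116 positions were read 5 times or more in all 4 libraries, with median depths of 43 and 27 reads in WT-Mat-Aphi and of 25 and 28 reads in Oocyte. They filled 101338 tiles of 100 bp and 74612 tiles of 1000 bp with at least 2 such positions. The labels were checked without genes. Tiles methylated only in sperm stood at 5.07% and 5.34% in WT-Mat-Aphi and at 3.99% and 3.96% in Oocyte, though the Oocyte libraries had helped to choose them. Mitochondrial CpGs stood at 0.169% and 0.155% in WT-Mat-Aphi and at 0.205% and 0.194% in Oocyte.

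Averaged over all positions, the replication-blocked maternal genome was as methylated as the oocyte genome within the spread between replicates. The mean methylation level was 16.6% and 16.7% in WT-Mat-Aphi and 16.6% and 16.7% in Oocyte. The difference of the group means was 0.0065 percentage points, and the 4 differences between single libraries ran from -0.105 to 0.118 points (exact two-sided permutation test, p = 1.0). With 2 libraries per group the smallest p this test can give is 0.333, so it cannot pass 0.05 anywhere in this comparison. The sign of so small a value was not stable: weighted by reads, the difference was -0.459 points, with single-library differences of -1.53 to 0.612 points. On chromosome X, kept apart, the 10815 positions averaged 18.2% and 17.6% in WT-Mat-Aphi and 18.0% and 18.1% in Oocyte.

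The same held along the chromosomes. The 19 autosomes differed by -0.27 to 0.272 points in their mean level, and the libraries of the groups overlapped on 15 of them. Chromosome 3 gave the highest difference, with 14.2% and 14.0% in WT-Mat-Aphi and 13.8% and 13.9% in Oocyte. Chromosome 14 gave the lowest, with 15.2% and 15.3% in WT-Mat-Aphi and 15.4% and 15.6% in Oocyte. The groups did not overlap on 2 chromosomes where WT-Mat-Aphi was higher and on 2 where it was lower. Tiles of 1000 bp were also grouped by how many CpG positions the files list in them, and the 4 bins differed by 0.0321 to 0.163 points in their mean, all within the spread between libraries.

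**Figure D1:**
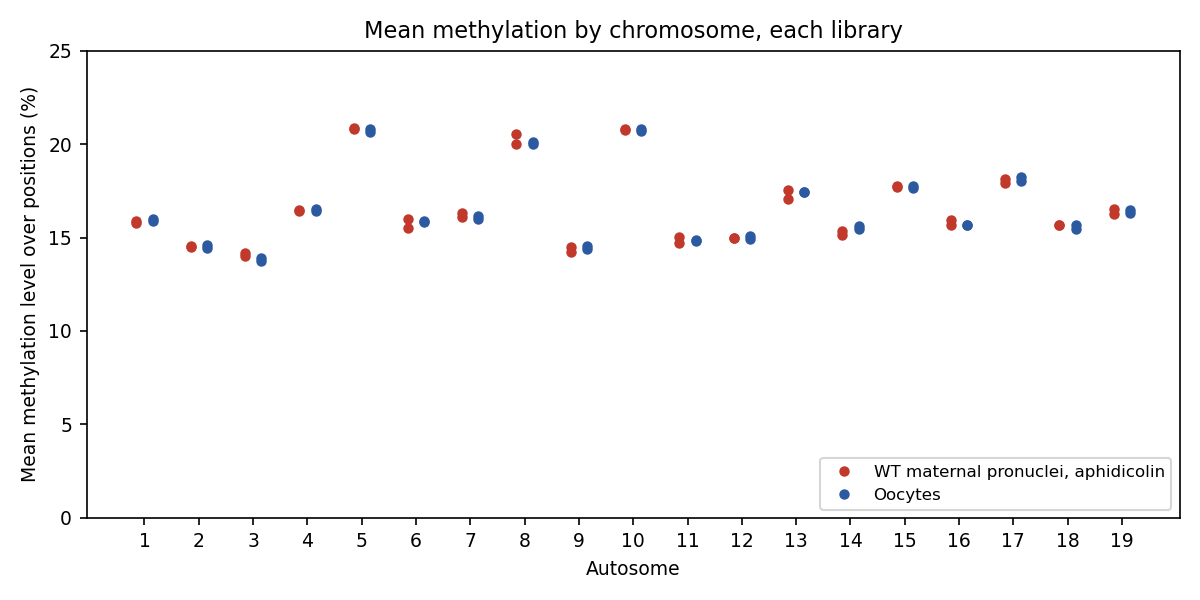
Mean methylation level (%, y axis) over autosomal positions read 5 times or more in all 4 libraries, by chromosome (x axis). Each point is 1 library, WT maternal pronuclei with aphidicolin in red and oocytes in blue. The group means differ by -0.27 to 0.272 percentage points, less than the chromosomes differ from each other.

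Gamete classes show where methylation sits. Tiles of 100 bp were sorted by their mean level in oocytes and in sperm. Tiles at 75% or more in both gametes averaged 94.95% and 94.95% in WT-Mat-Aphi, against 96.4% and 96.5% in Oocyte (12345 tiles, difference -1.53 points). Tiles at 75% or more in oocytes and 25% or less in sperm, the class in which the maternal genome alone is methylated, averaged 91.5% and 92.1% in WT-Mat-Aphi and 95.0% and 95.4% in Oocyte (2347 tiles, difference -3.39 points). Sperm-only tiles averaged 5.07% and 5.34% in WT-Mat-Aphi and 3.99% and 3.96% in Oocyte (20267 tiles, difference 1.23 points). Tiles low in both gametes averaged 1.30% and 1.41% in WT-Mat-Aphi and 1.10% and 1.15% in Oocyte (55152 tiles). Tiles between 25% and 75% in oocytes averaged 46.2% and 45.8% in WT-Mat-Aphi and 46.7% and 47.8% in Oocyte (5548 tiles). The groups did not overlap in any of these 5 classes, and the exact permutation p was 0.333 each time, the smallest the design allows.

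The oocyte libraries that set these classes are also the ones the pronuclei were measured against, so part of each difference comes with the choice. With the class set by 1 oocyte library and the difference taken against the other, the difference was -0.61 and -0.661 points in tiles methylated in both gametes and -1.66 and -1.62 points in oocyte-only tiles, smaller by over 1.5 times in both classes. With classes set by sperm alone, tiles at 75% or more in sperm averaged 39.9% and 40.0% in WT-Mat-Aphi and 39.8% and 39.9% in Oocyte (36160 tiles). Tiles at 25% or less in sperm averaged 5.87% and 6.05% in WT-Mat-Aphi and 5.90% and 6.01% in Oocyte (58901 tiles).

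Mock maternal pronuclei of the same age lay far lower in the same tiles. Over 10543 tiles methylated in both gametes and covered in all 6 libraries, the mean was 95.0% and 94.8% in WT-Mat-Aphi, 80.2% and 83.3% in WT-Mat, and 96.4% and 96.5% in Oocyte. WT-Mat-Aphi exceeded WT-Mat by 13.2 points (single-library differences of 11.6 to 14.8 points; exact permutation p = 0.333). Over 1992 oocyte-only tiles the mean was 91.3% and 91.8% in WT-Mat-Aphi, 79.7% and 82.3% in WT-Mat, and 95.0% and 95.2% in Oocyte, and WT-Mat-Aphi exceeded WT-Mat by 10.5 points. Over 4918 tiles partly methylated in oocytes it was 45.6% and 45.3% in WT-Mat-Aphi, 32.7% and 34.8% in WT-Mat, and 46.7% and 47.4% in Oocyte. Of the 5 classes, WT-Mat-Aphi lay above Oocyte only in those where oocytes hold little methylation: sperm-only tiles stood at 5.03% and 5.29% in WT-Mat-Aphi, at 3.51% and 3.96% in WT-Mat and at 4.00% and 3.96% in Oocyte. Those classes need low levels in the same oocyte libraries, so part of this comes with the choice. In tiles at 0% to 5% in 1 oocyte library, WT-Mat-Aphi exceeded the other oocyte library by 0.132 and 0.168 points. No such value was taken for sperm-only tiles.

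**Figure D2:**
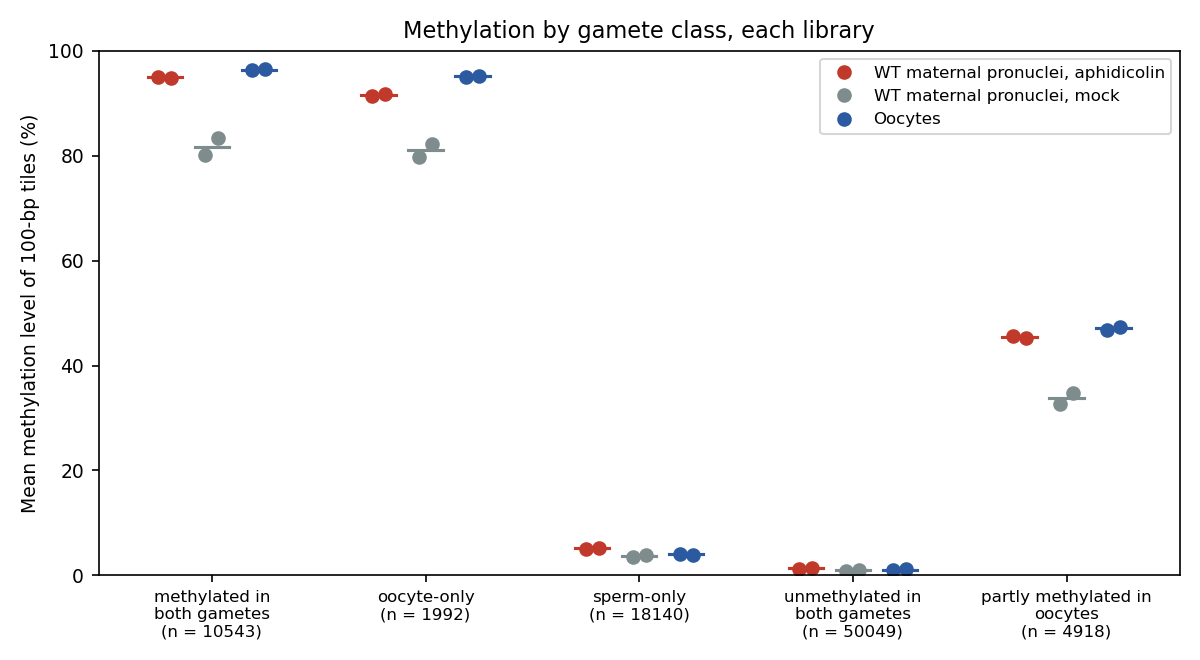
Mean methylation level of 100-bp tiles (%, y axis) by gamete class (x axis), for tiles covered in all 6 libraries. Points are libraries and bars group means, for aphidicolin (red), mock (grey) and oocytes (blue). In the 3 classes with oocyte methylation the mean difference from oocytes lies between -3.57 and -1.52 points with aphidicolin and between -14.7 and -13.3 points in mock.

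Binning tiles by their level in 1 oocyte library and measuring against the other removes the shared library. At 95% to 100% in oocyte replicate 1 (10165 tiles) the mean was 95.9% and 96.0% in WT-Mat-Aphi, 82.3% and 85.1% in WT-Mat, and 96.6% in the other oocyte library. WT-Mat-Aphi thus differed from that library by -0.711 points, and WT-Mat by -12.9 points. With the bins set by oocyte replicate 2 these differences were -0.908 points for WT-Mat-Aphi and -13.2 points for WT-Mat. At 75% to 90% they were -1.03 and -1.15 points for WT-Mat-Aphi and -16.2 and -15.9 points for WT-Mat. Below 75% the WT-Mat-Aphi differences lay between -0.272 and 0.813 points. Both ends came from the bin of 25% to 50%, the lower set by oocyte replicate 1 and the higher by oocyte replicate 2.

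**Figure D3:**
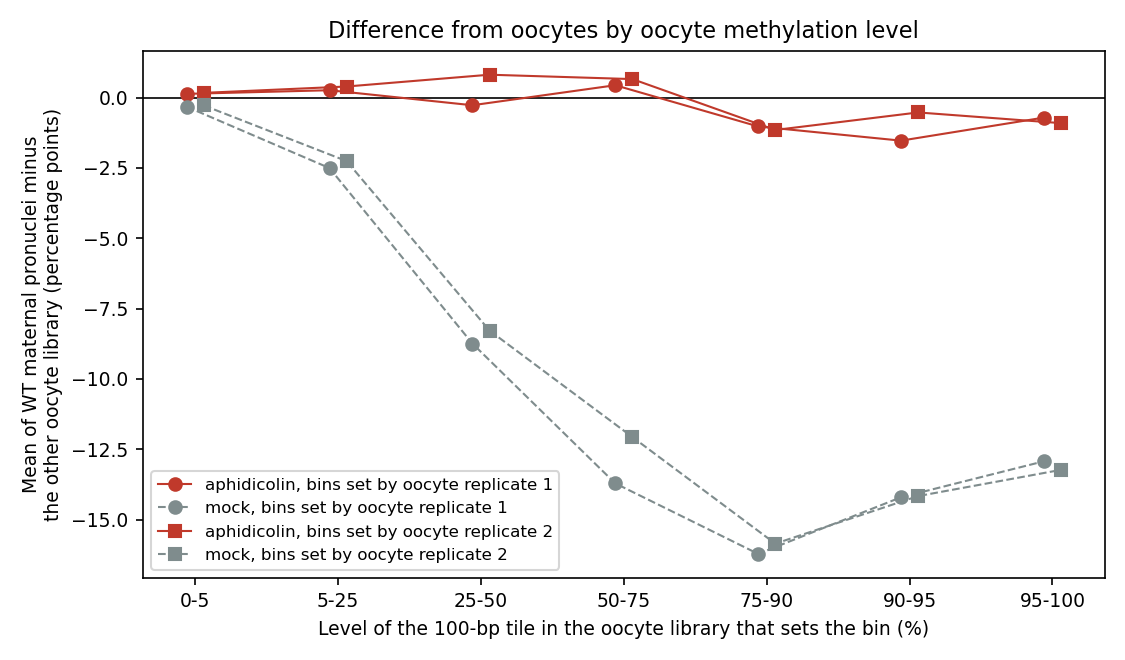
Mean of the 2 WT maternal pronuclear libraries minus the oocyte library that did not set the bin (percentage points, y axis), by level of the 100-bp tile in the oocyte library that did (%, x axis). Circles and squares mark bins set by oocyte replicates 1 and 2. Aphidicolin (red) stays between -1.53 and 0.813 points, and mock (grey) falls to -16.2 points.

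The mean hides a small number of tiles that were low outright. Of the tiles at 95% or more in oocyte replicate 1, 1.79% and 1.61% stood below 50% in the WT-Mat-Aphi libraries, 9.03% and 5.46% in the WT-Mat libraries and 0.561% in the other oocyte library. Below 10% stood 1.02% and 0.866% in WT-Mat-Aphi, 3.20% and 1.46% in WT-Mat, and 0.148% in the other oocyte library. At the opposite end, of tiles at 5% or less in oocyte replicate 1 (62974 tiles), 0.53% and 0.478% stood above 50% in WT-Mat-Aphi, 0.273% and 0.238% in WT-Mat, and 0.141% in the other oocyte library. Both WT-Mat-Aphi libraries thus held more tiles at the opposite extreme than the second oocyte library did.

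In tiles chosen by the level of the other group, the WT-Mat-Aphi libraries also agreed less with each other than the Oocyte libraries did. In tiles whose mean in the other group was 25% to 75%, the median absolute difference between replicates was 25 points in WT-Mat-Aphi (5740 tiles) and 10.5 points in Oocyte (6887 tiles). The tiles thus differ between the groups, and part of the gap may come with this choice, which was not tested. Replicates lay over 50 points apart in 21.2% of such tiles in WT-Mat-Aphi and in 4.56% in Oocyte. Levels at 5% or less, or at 95% or more, made up 50.1% and 44.2% of these tiles in the WT-Mat-Aphi libraries and 29.1% and 30.9% in the Oocyte libraries, although their median calls were 114 and 78 in WT-Mat-Aphi and 68 and 76 in Oocyte. The reads behind a tile are copies of a limited number of molecules, and the part of this number in the spread was not tested.

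Single tiles were tested with a quasi-binomial logistic model whose spread was shared over tiles through limma, and called where the Benjamini-Hochberg adjusted p was below 0.05 and the groups lay 10 points or more apart. Of 101338 tiles of 100 bp, 22 (0.0217%) fell and 7 (0.00691%) rose in WT-Mat-Aphi relative to Oocyte. At an unadjusted p under 0.05 there were 489 lower and 563 higher of the 101338 tiles. Together these are a smaller share of all tiles than the threshold of 0.05, so the count is not read as change. Of 74612 tiles of 1000 bp, 29 (0.0389%) fell and 29 (0.0389%) rose. These counts rest on how the spread is estimated: limma on log2 ratios called 0 tiles of either size in either direction, and edgeR called 7 lower and 0 higher tiles of 100 bp and 0 tiles of 1000 bp. No call of the named regions was kept when either oocyte library was left out. On 100-bp tiles covered in all 6 libraries the same test called 20 lower (0.0222%) and 7 higher (0.00776%) tiles for WT-Mat-Aphi against Oocyte, and 31 lower (0.0343%) and 6 higher (0.00665%) for WT-Mat against Oocyte. At 1000 bp it called 25 lower (0.037%) and 27 higher (0.0399%) tiles for WT-Mat-Aphi against Oocyte, and 133 lower (0.197%) and 28 higher (0.0414%) for WT-Mat against Oocyte, all set against the same oocyte libraries.

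Differences without overlap between the groups were far more common than calls. In WT-Mat-Aphi 3183 tiles of 100 bp (3.14%) were at least 10 points lower without overlap, and 2722 (2.69%) at least 10 points higher. At 50 points or more these numbers were 372 lower (0.367%) and 415 higher (0.41%) tiles.

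Of the 22 lower tiles of 100 bp, 12 came from one very deep stretch at chr17:39979901-39991000 (mm9). It was singled out after its values were seen, and carries no gene name here for want of an mm9 annotation. Its 48 tiles had a median of 17173 calls per library, and 43 of them were lower in WT-Mat-Aphi without overlap, as were 6689 of all 100-bp tiles (6.6%). Summed over 496 positions the level was 9.59% and 8.41% in WT-Mat-Aphi and 18.9% and 17.5% in Oocyte, a difference of -9.24 points. WT-Mat stood between them, at 14.8% and 12.6%, and CKO-Mat-Aphi at 11.8% and 15.3%. Depth of this order was rare: 105 tiles of 100 bp (0.104%) had over 10 times the median calls, and they held 13 of the 22 lower calls. Without such tiles 2 lower and 5 higher tiles were called.

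The other 10 lower tiles, and 6 higher regions, are single places along the genome. In all named regions and tiles WT-Mat-Aphi and Oocyte were read on the positions shared by their 4 libraries. WT-Mat, CKO and sperm libraries were read on every position with 5 reads in that library, so the CpGs can differ. In mm9 and by size, the first was chr7:57318001-57318100, at 0% and 0% in WT-Mat-Aphi and 97.6% and 100% in Oocyte (adjusted p = 0.0394). It was read on 2 positions. WT-Mat stood there at 77.9% and 55.3%, and CKO-Mat-Aphi at 89.0% and 100%. The second, chr2:50844001-50844100, stood at 0% and 0% in WT-Mat-Aphi and 89.6% and 100% in Oocyte (adjusted p = 0.000279), with WT-Mat at 0% and 5.30% and CKO-Mat-Aphi at 0% and 0%. That tile was read on 3 positions. Both WT-Mat-Aphi libraries thus held no methylated call at either place, while WT-Mat and CKO-Mat-Aphi were near 0% at the second place and above 50% at the first.

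The lowest adjusted p of the 16 regions belonged to chr9:62263401-62263500, at 0% and 0% in WT-Mat-Aphi and 93.4% and 86.9% in Oocyte over 7 positions (adjusted p = 1.06e-05). It read 49.3% and 52.5% in WT-Mat and 0.69% and 0.174% in sperm. The tile chr6:90686601-90686700 stood at 0.418% and 0% in WT-Mat-Aphi and 87.5% and 100% in Oocyte (adjusted p = 0.0394). In both of these 100-bp tiles oocytes were methylated, while the WT-Mat-Aphi and sperm libraries read below 1%. WT-Mat stood at 0% and 35.0% in the tile on chromosome 6. The called 1000-bp tile around it, over 28 positions, stood at 70.5% and 40.9% in WT-Mat-Aphi and 93.6% and 97.4% in Oocyte. The one around the chromosome 9 tile, over 11 positions, stood at 0% and 14.9% in WT-Mat-Aphi. Of all 100-bp tiles covered in sperm as well, 58901 averaged 25% or less in sperm and 36160 averaged 75% or more. Sperm varied among the 10 lower regions: both sperm libraries read 25% or less in 6 and 75% or more in 2. The largest difference, at chr7:57318001-57318100, was among the latter, with 98.7% and 99.6% in sperm. The second, chr2:50844001-50844100, stood at 67.6% and 62.3% in sperm. Other lower tiles kept part of the oocyte level in 1 library, such as chr2:151967801-151967900 with 0.714% and 35.6% in WT-Mat-Aphi and 96.4% and 100% in Oocyte, or chr1:92965101-92965200 with 0% and 39.1% in WT-Mat-Aphi and 68.9% and 82.3% in Oocyte. The former was read on 2 positions and the latter on 7. The smallest named difference, at chr17:36368401-36368500, came with 5039 or more calls per library, at 3.17% and 2.34% in WT-Mat-Aphi and 16.8% and 12.2% in Oocyte (adjusted p = 0.00236).

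Among the higher regions, chr11:115738301-115738400 stood at 99.5% and 100% in WT-Mat-Aphi and at 0% and 0% in Oocyte (adjusted p = 0.0427). It was read on 2 positions, with 40 calls in WT-Mat-Aphi replicate 2. Sperm read 98.0% and 98.6% there, and WT-Mat 51.4% and 94.5%. The tile chr11:115744901-115745000 stood at 100% and 91.4% in WT-Mat-Aphi and 8.96% and 15.2% in Oocyte (adjusted p = 0.00135), with WT-Mat at 82.6% and 75.7%. The tile chr7:73616901-73617000 stood at 100% and 89.5% in WT-Mat-Aphi and 15.6% and 0% in Oocyte (adjusted p = 0.0106), and sperm at 97.5% and 98.3%. It was read on 2 positions, and there WT-Mat stood at 1.53% and 27.0% and CKO-Mat-Aphi at 10.9% and 100%. Sperm levels varied between these places: both sperm libraries read 75% or more in 2 of the 6 higher regions and 25% or less in 3. Beside the counts over all 100-bp tiles given above, these are too few to be read as a trait of the regions. At chr9:54997201-54997400 WT-Mat-Aphi stood at 74.2% and 59.9% over 24 positions, Oocyte at 0% and 0% (adjusted p = 0.0227) and sperm at 0.198% and 0%. At chr6:142784501-142784600 WT-Mat-Aphi stood at 93.6% and 97.4%, Oocyte at 30.0% and 29.2% (adjusted p = 0.00526) and sperm at 1.61% and 3.22%. The regions on chromosomes 9 and 6 were also high in CKO-Mat-Aphi, at 61.0% and 90.7% on chromosome 9 and at 99.7% and 100% on chromosome 6. Without aphidicolin they were above the oocytes as well. On chromosome 9 WT-Mat stood at 33.0% and 87.9%, and mock CKO pronuclei (CKO-Mat) at 49.0% and 75.3%. On chromosome 6 WT-Mat stood at 55.4% and 86.7%, and CKO-Mat at 64.6% and 90.5%. The remaining one, chr8:73985501-73985600, stood at 67.0% and 26.7% in WT-Mat-Aphi and 0% and 0% in Oocyte (adjusted p = 0.00526), and sperm at 5.14% and 3.07%.

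**Figure D4:**
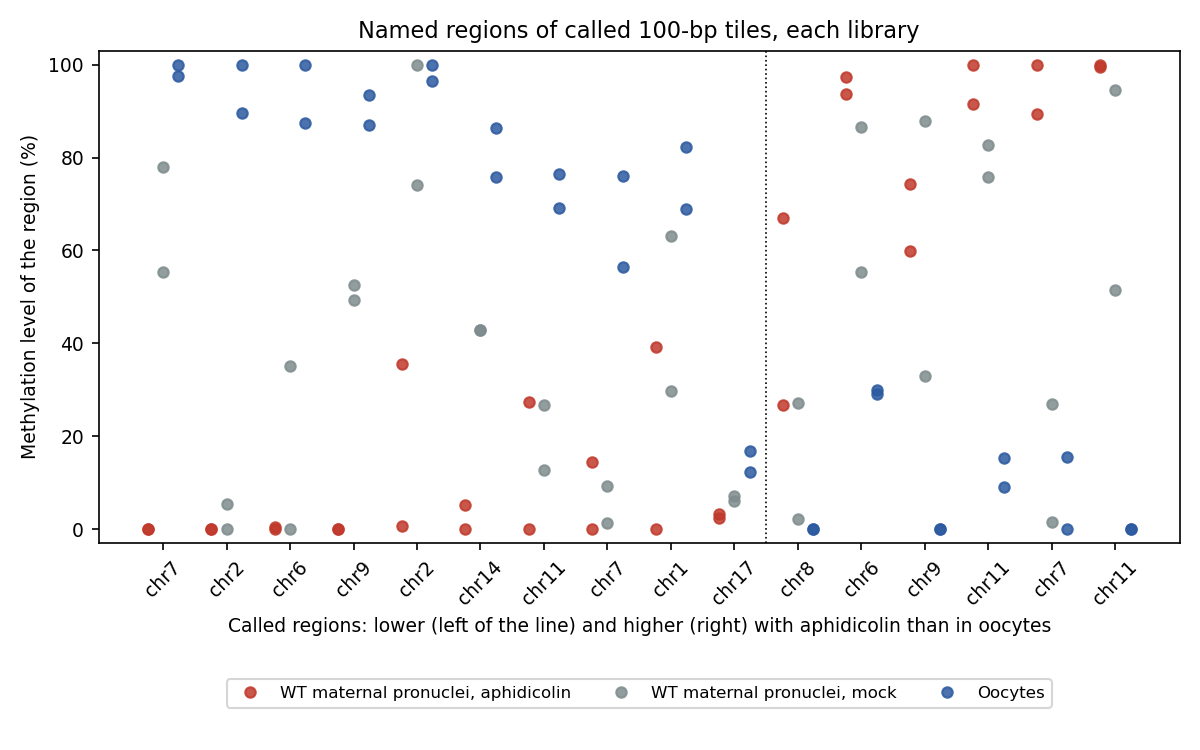
Methylation level (%, y axis) of the 10 lower and 6 higher named regions of called 100-bp tiles (x axis, by chromosome). Points are libraries, for aphidicolin (red), mock (grey) and oocytes (blue). Aphidicolin and oocyte points do not overlap in any region, by the rule that chose them, and the mock points lie anywhere between 0% and 100%.

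The first 5 called tiles of 1000 bp in each direction included 4 of these places again, and 6 were new. Of the lower ones these were chr6:128626001-128627000, at 0% and 0% in WT-Mat-Aphi and 100% and 100% in Oocyte (adjusted p = 0.0123), and chr6:121029001-121030000, at 0% and 0% in WT-Mat-Aphi and 86.0% and 100% in Oocyte (adjusted p = 0.00594). At chr6:120577001-120578000 WT-Mat-Aphi stood at 0% and 13.0%, and Oocyte at 95.8% and 96.5% (adjusted p = 0.000455). On the higher side, chr3:145641001-145642000 stood at 97.8% and 100% in WT-Mat-Aphi and 0% and 4.60% in Oocyte (adjusted p = 0.0252), and chr6:91217001-91218000 at 100% and 99.3% in WT-Mat-Aphi and 13.3% and 6.17% in Oocyte (adjusted p = 0.00846). At chr11:99205001-99206000 WT-Mat-Aphi stood at 73.8% and 95.9%, and Oocyte at 0% and 0% (adjusted p = 0.0377). Both sperm libraries read 75% or more in 4 of the 5 higher and 3 of the 5 lower tiles. Of all 1000-bp tiles covered in sperm as well, 39439 averaged 75% or more in sperm and 29064 averaged 25% or less. The sperm counts are thus not read as a trait of the called tiles. The 10 tiles held 2 to 5 positions each, and 26 calls or more per library.

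Genes were reached through their promoters. RefSeq promoter sequences (GRCm38.p6, 250 bases before to 50 after the gene's start) were laid on the measured mm9 positions by the spacing of their CpGs alone, which placed 7476 of them with a neighbour at the same offset. Windows of 4393 gene symbols could be tested, 4526 in all. Most were unmethylated in every library: 4344 windows were low in both gametes, at 0.766% and 0.769% in WT-Mat-Aphi and 0.595% and 0.71% in Oocyte. Tested like the tiles, 1 window (0.0221%) rose and 0 (0%) fell, and limma on log2 ratios and edgeR called 0 in either direction. At an unadjusted p under 0.05 there were 10 of the 4526 windows in each direction, again a smaller share than that threshold. Over all windows the mean was 2.92% and 3.08% in WT-Mat-Aphi and 2.94% and 3.17% in Oocyte.

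Promoters methylated in oocytes and not in sperm kept that methylation under aphidicolin in most cases. These 76 windows averaged 91.5% and 92.0% in WT-Mat-Aphi and 94.2% and 94.5% in Oocyte, while the median difference was 0.76 points (WT-Mat-Aphi minus Oocyte), so mean and median had opposite signs. Both WT-Mat-Aphi libraries read 95% or more in 47 of the windows, and both Oocyte libraries in 35. Both WT-Mat-Aphi libraries read exactly 100% in 38, and both Oocyte libraries in 13. With the class set by oocyte replicate 1 alone (74 windows), the mean was 91.8% and 92.1% in WT-Mat-Aphi and 94.3% in the other oocyte library. With the class set by oocyte replicate 2 alone (81 windows), it was 85.5% and 88.4% in WT-Mat-Aphi and 89.2% in the other oocyte library. None of the 76 passed the test.

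Mock pronuclei stood lower in the same promoter windows, though not on the same CpGs throughout. Here and below, WT-Mat and CKO libraries were read on every position of a window with 5 reads in that library. WT-Mat-Aphi and Oocyte were read only on the positions shared by their 4 libraries. Over 74 of the 76 windows with calls in all 6 libraries, the mean was 91.5% and 92.0% in WT-Mat-Aphi, 81.9% and 85.6% in WT-Mat, and 94.3% and 94.3% in Oocyte. Both libraries read 95% or more in 46 windows in WT-Mat-Aphi, in 8 in WT-Mat and in 34 in Oocyte. Windows below 50% were few in every library: 4 and 4 in WT-Mat-Aphi, 5 and 6 in WT-Mat, and 0 and 0 in Oocyte, which had set the class. The next 2 windows are thus extremes of the mock libraries. The promoter of Ncoa4, a receptor for the autophagy of ferritin, stood at 100% and 100% in WT-Mat-Aphi, at 0% and 2.41% in WT-Mat and at 100% and 100% in Oocyte. That of S1pr2, a sphingosine 1-phosphate receptor, stood at 89.2% and 100% in WT-Mat-Aphi, 5.14% and 22.2% in WT-Mat and 92.9% and 93.9% in Oocyte. CKO-Mat-Aphi, also under aphidicolin, read 79.9% and 58.0% at S1pr2. At Ncoa4 CKO-Mat-Aphi replicate 1 read 19.3%, from 140 calls, and replicate 2 had none. All genes named here and below were chosen after their values were seen.

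A few of the 76 windows are given as examples, and no group of genes was tested among them. Dnmt1, the maintenance DNA methyltransferase, stood at 100% and 100% in WT-Mat-Aphi and 99.0% and 98.3% in Oocyte, with 95.6% and 85.6% in WT-Mat. Tet3, the dioxygenase of the zygote, stood at 100% and 100% in WT-Mat-Aphi and 91.7% and 100% in Oocyte, in a window that shares CpGs with that of B230319C09Rik. Mcts2, an imprinted retrogene expressed from the paternal allele, stood at 100% and 100% in WT-Mat-Aphi and 97.8% and 100% in Oocyte. Hymai, at the imprinted Plagl1 locus, stood at 100% and 100% in WT-Mat-Aphi and 92.0% and 100% in Oocyte. The Hymai window was read on 2 positions, with 12 calls in WT-Mat-Aphi replicate 2. It overlaps the Plagl1 window given below, where that library read 80.3% from 117 calls. Pparg, a nuclear receptor of fat cells, stood at 99.4% and 92.0% in WT-Mat-Aphi and 100% and 100% in Oocyte. Commd1 and Palld read 100% in all 4 libraries.

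Of a list of 20 germline imprinted genes, 5 had a placed promoter and 1 of them, Mcts2, was covered well enough for the test. On positions counted in each library separately, the Plagl1 promoter, a zinc finger gene, stood at 100% and 80.3% in WT-Mat-Aphi and 95.9% and 98.0% in Oocyte, from 117 to 244 calls. The window placed for Grb10, an adaptor of insulin signalling, was unmethylated, at 0% and 0.161% in WT-Mat-Aphi and 0% and 0.613% in Oocyte. The window of Zrsr1, a splicing factor gene inside Commd1, had no calls in WT-Mat-Aphi replicate 1, and stood at 78.0% in replicate 2 and at 95.3% and 98.8% in Oocyte.

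In 8 of the 76 windows 1 WT-Mat-Aphi library read below 50%, and in none did both. No Oocyte library read below 50% in them, but the oocyte libraries had set the class. With the class set by oocyte replicate 2 alone, 10 and 7 of 81 windows were below 50% in the WT-Mat-Aphi libraries and 6 in the other oocyte library. With the class set by oocyte replicate 1 alone, 4 and 4 of 74 were below 50% in the WT-Mat-Aphi libraries and 0 in the other oocyte library. Abl1, a tyrosine kinase, stood at 0% and 90.6% in WT-Mat-Aphi and 86.7% and 83.3% in Oocyte. Inka2, an inhibitor of the kinase Pak4, stood at 0% and 100% in WT-Mat-Aphi and 77.5% and 78.2% in Oocyte. Dusp8, a phosphatase of MAP kinases, stood at 79.2% and 0% in WT-Mat-Aphi and 80.4% and 100% in Oocyte, and Grid2ip, a scaffold of cerebellar glutamate receptors, at 82.8% and 0% in WT-Mat-Aphi and 80.8% and 76.3% in Oocyte. In these windows the WT-Mat-Aphi replicates disagreed with each other by more than their mean differed from oocytes. Acsf2, Spg21, Cav2 and Slc6a4, the serotonin transporter, made up the rest.

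**Figure D5:**
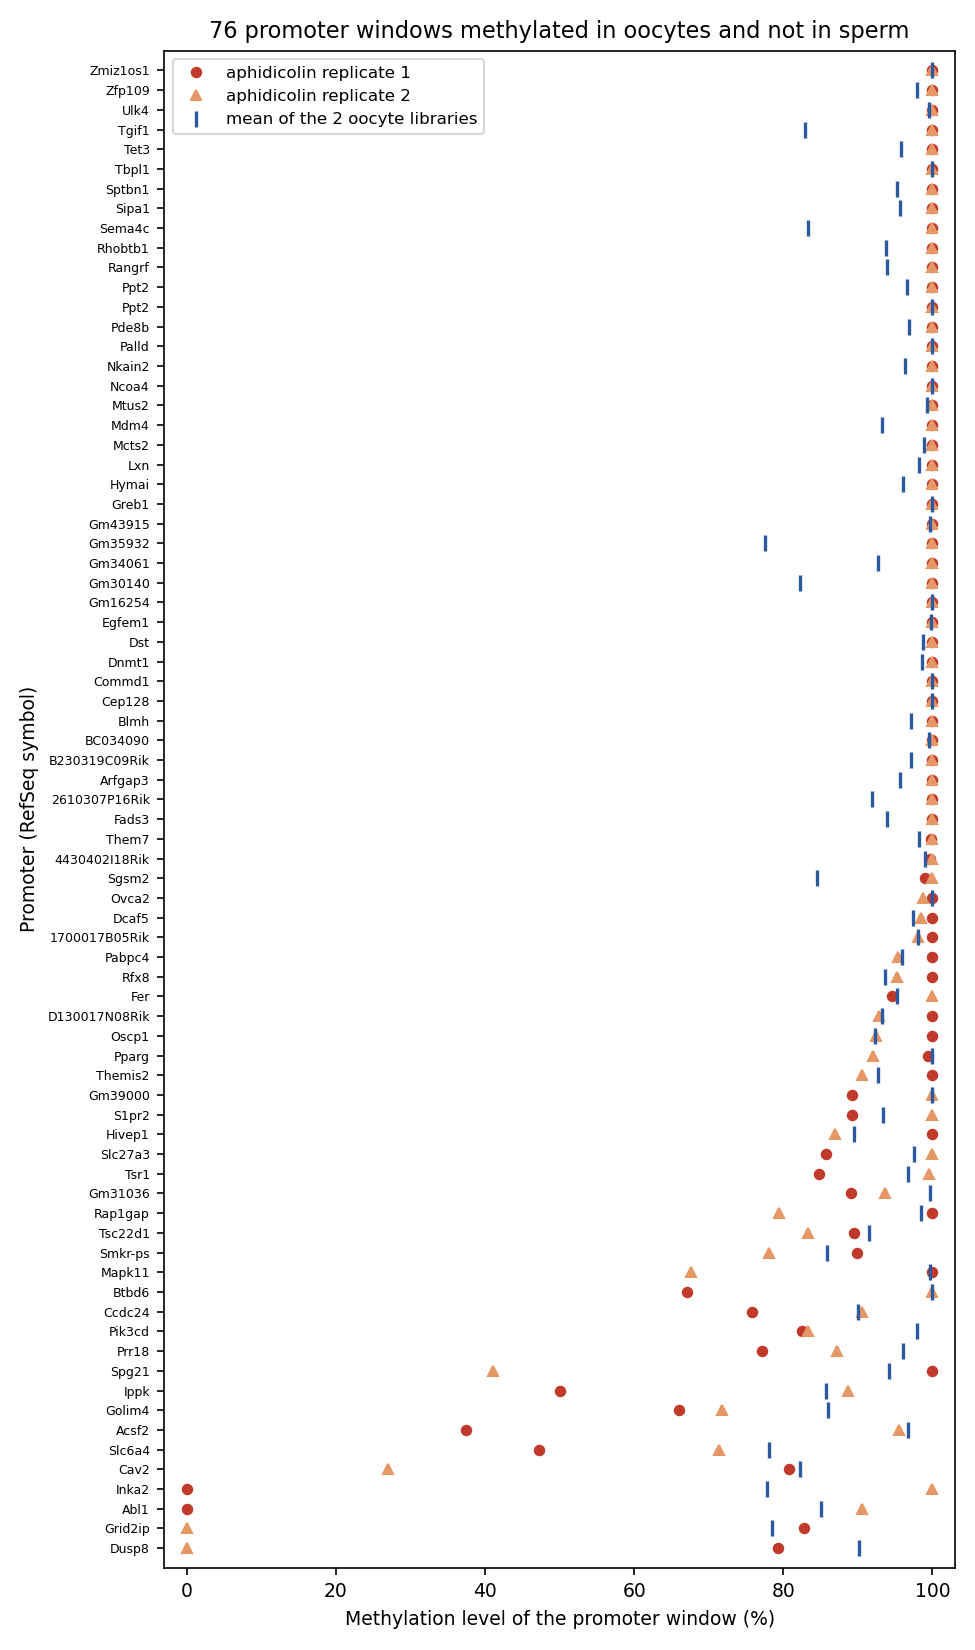
Methylation level (%, x axis) of the 76 promoter windows that were methylated in oocytes and not in sperm (y axis, by RefSeq symbol, sorted by their mean with aphidicolin). Red circles and orange triangles are WT-Mat-Aphi replicates 1 and 2, and blue ticks the mean of the 2 Oocyte libraries. In 47 windows both aphidicolin libraries read at 95% or more, and the 8 windows with a library below 50% hold 1 such library each.

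The promoter that rose, that of the chloride and proton exchanger Clcn4, stood at 13.1% and 42.9% in WT-Mat-Aphi and 0% and 0% in Oocyte, from 654 calls or more per library (adjusted p = 0.0235). WT-Mat stood there at 26.3% and 8.41%, and CKO-Mat-Aphi at 31.8% and 30.1%, so the libraries of these groups were above the oocytes as well. The WT-Mat and CKO values could take in CpGs that are not among the shared positions. In the CKO-Mat libraries, made from mock CKO zygotes, the 1000-bp tile chr7:7252001-7253000 that overlaps the window stood at 11.9% and 0%, and in Oocyte at 0% and 0%. The call held in 5 of 12 other settings. Next in rank and not passing the test came Pigl, an enzyme of glycosylphosphatidylinositol anchor synthesis, at 0% and 40.5% in WT-Mat-Aphi and 72.7% and 71.6% in Oocyte (adjusted p = 0.091). Its window overlaps the called tile chr11:62271901-62272000, which stood at 0% and 27.3% in WT-Mat-Aphi and 76.5% and 69.1% in Oocyte (adjusted p = 0.0209), with WT-Mat at 26.6% and 12.8%.

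The CpGs behind these values are shown for 2 promoters that kept their oocyte methylation, Dnmt1 and Mcts2, and for the 2 with the lowest p, Clcn4 and Pigl. The 250 bases before each gene's start are given 5′ to 3′ on the gene's strand, from RefSeq (GRCm38.p6), and the mm9 places are those of the spacing match: chr9:20757068-20757317 (minus strand) for Dnmt1, chr2:152512634-152512883 (plus strand) for Mcts2, chr7:7252269-7252518 (minus strand) for Clcn4 and chr11:62271693-62271942 (plus strand) for Pigl. Capitals mark the CpGs read 5 times or more in every one of the 4 libraries.
Dnmt1: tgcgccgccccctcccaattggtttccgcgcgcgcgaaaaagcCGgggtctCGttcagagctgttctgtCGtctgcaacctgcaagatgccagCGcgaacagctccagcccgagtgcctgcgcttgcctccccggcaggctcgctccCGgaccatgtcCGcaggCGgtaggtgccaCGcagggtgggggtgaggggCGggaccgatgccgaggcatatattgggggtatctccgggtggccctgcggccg
Mcts2: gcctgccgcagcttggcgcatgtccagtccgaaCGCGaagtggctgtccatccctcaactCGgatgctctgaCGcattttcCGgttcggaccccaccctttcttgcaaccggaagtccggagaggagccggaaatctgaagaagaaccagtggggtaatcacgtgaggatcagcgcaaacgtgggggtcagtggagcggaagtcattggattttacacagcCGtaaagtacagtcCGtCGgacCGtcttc
Clcn4: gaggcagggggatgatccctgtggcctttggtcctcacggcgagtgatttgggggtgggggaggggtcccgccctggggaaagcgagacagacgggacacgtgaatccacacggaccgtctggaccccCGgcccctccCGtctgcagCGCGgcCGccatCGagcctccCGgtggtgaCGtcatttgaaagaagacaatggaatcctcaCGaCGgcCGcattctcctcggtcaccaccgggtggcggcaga
Pigl: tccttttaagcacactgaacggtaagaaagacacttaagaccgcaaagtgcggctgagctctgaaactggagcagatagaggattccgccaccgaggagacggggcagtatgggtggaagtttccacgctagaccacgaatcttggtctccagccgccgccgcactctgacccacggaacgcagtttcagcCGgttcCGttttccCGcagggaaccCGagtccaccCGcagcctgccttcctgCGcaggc
The stretch held 9 measured CpGs of 26 in Dnmt1, 9 of 20 in Mcts2, 11 of 22 in Clcn4 and 6 of 19 in Pigl. The windows tested also took in the 50 bases after the start, not printed here.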

How the data were processed

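The 12 files used hold, per CpG position, the counts of methylated and unmethylated calls and the percent methylated, as deposited by the authors and not normalised; the deposited percent equals the share of methylated counts (largest gap 7.11e-14). Per the submitters' processing notes, reads were handled with Trim Galore and Bismark 0.10.1 on the mm9 build. Neither labels nor files state any filter or duplicate removal, and the files have no header. Without molecular identifiers, reads are not independent molecules.

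Positions needed 5 reads in all 4 libraries and tiles 2 such positions. Each tile was fitted with a quasi-binomial model in R. Its dispersion was taken from groups expecting at least 5 calls of both kinds and shrunk with limma, trended on depth, with a floor of 1. The prior degrees of freedom came out infinite, so every tile took the trended value (median 34.6 for 100-bp tiles). Called tiles less than 500 bp apart were joined, and the 10 largest per direction with no overlap and 20 calls per library are named, with the first 5 called tiles of 1000 bp. Means were compared by exact permutation.

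Promoters were placed on the chromosome of their gene where at least 5 CpGs and 8 positions matched and the next placement was 3 or more CpGs worse. Of 32851 promoters 20355 could be searched and 8147 had 1 best placement, of which 91.8% shared their offset with a neighbour and were kept. This step, the promoter test and the tiles of 6 libraries were added after the data were seen. The members and lists were chosen with earlier results of these data known.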

Additional observations from a re-analysis of the deposited data

Results flagged for a closer look

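Chromosome Y calls, which no maternal genome holds and no comparison above uses, were above both oocyte libraries in both aphidicolin libraries. They made up 6.77e-05% of the calls in WT-Mat-Aphi replicate 1 (33 calls) and 0.000508% in WT-Mat-Aphi replicate 2 (151 calls), against 3.44e-05% and 4.41e-05% in the Oocyte libraries (14 and 20 calls). The other maternal pronuclear libraries were above the oocytes as well, so this is not particular to WT-Mat-Aphi. WT-Mat held 0.000692% and 0.000198%, CKO-Mat-Aphi 0.00163% and 9.3e-05%, and CKO-Mat 0.00297% and 0.000296%. Sperm held 0.0111% and 0.0117%. The part of these calls in the autosomal results was not tested.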

How the results depend on the processing

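The difference over positions (0.0065 points) changed sign when weighted by reads (-0.459), and ran from -0.0682 to 0.0813 points over the leave-one-out fits, negative without WT-Mat-Aphi replicate 2 and without Oocyte replicate 1 (-0.0305). Both class differences kept their sign in every setting tried, from -2.67 to -0.61 points in tiles methylated in both gametes and from -5.58 to -1.62 points in oocyte-only tiles. Their extremes came from the oocyte libraries that set the class. Counts of called tiles are given as lower and higher 100-bp tiles, then lower and higher 1000-bp tiles, against 22, 7, 29 and 29. They were 229, 254, 263 and 306 with dispersion from every group, 14, 4, 17 and 16 with the floor before shrinkage, 10, 1, 3 and 4 with all 10 maternal libraries, 0, 0, 0 and 0 by limma on log2 ratios, and 7, 0, 0 and 0 by edgeR. limma on arcsine square roots called 55 higher 100-bp and 69 higher 1000-bp tiles. With 20 points as the minimum 9 lower 100-bp tiles were called, with no minimum 35, and without very deep tiles 2. With the strands of a CpG summed there were 12 higher 100-bp tiles and 51 lower and 44 higher 1000-bp tiles. Over the leave-one-out fits the counts ranged from 5 to 492, 0 to 659, 0 to 743 and 0 to 946. All low ends came without an oocyte library and all high ends without a WT-Mat-Aphi library, when the dispersion comes from the remaining pair alone. They were 147, 226, 264 and 383 without WT-Mat-Aphi replicate 1, 492, 659, 743 and 946 without replicate 2, 5, 0, 0 and 0 without Oocyte replicate 1, and 12, 0, 3 and 0 without Oocyte replicate 2. The lone library is assumed to vary like the pair.

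The same replicate numbers did not pair the libraries: deviations of same-numbered libraries correlated at -0.0093 over 1000-bp tiles. With the replicate block the counts were 14, 2, 5 and 7, and the mean differences 0.0065, -1.53 and -3.39 points, with exact p of 1.0, 0.5 and 0.5 where 0.5 is the smallest sign flips allow. None of the 26 named regions and tiles reversed in any setting. All kept their call with 3 reads or summed strands, 7 with the block, 3 of 18 with all 10 libraries and 0 by edgeR, limma on log2 ratios or without either oocyte library. For Clcn4 the adjusted p held under 0.05 without either aphidicolin library and failed without either oocyte library. The depth of a tile does not give the number of molecules behind it.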
